A study of Mus musculus with 8 samples.

Results

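The response to lipopolysaccharide (LPS) of peritoneal macrophages labelled FURIN KO was measured by comparing their RNA after 4 h of LPS with their RNA when left untreated. The KO cells came from LysMCre-fur(fl/fl) mice on the C57BL/6 background, in which the Cre recombinase, driven from the lysozyme 2 (Lyz2) locus of myeloid cells, removes a floxed part of Furin, and the WT cells came from littermates. LPS from E. coli was given at 1 μg/ml to adherent cells that had been cultured for 24 h after peritoneal lavage. On each of the 8 arrays of the series, KO RNA in one dye was hybridised together with WT RNA in the other, both from 1 time point. The 4 KO samples used here (untreated replicates 1 and 2, and 4 h replicates 1 and 2) are 4 of the 16 samples on these arrays. KO RNA was in Cy5 in replicate 1 and in Cy3 in replicate 2 at every time point, so each replicate gave its own change within 1 dye. The replicates are called biological in the labels, which do not say whether they came from different mice or from pools, so the spread between them may be partly technical. The deposited culture protocol mentions only a 4 h stimulation, so times were taken from the sample titles. The untreated arrays lay in 1 row of the slide and the 4 h arrays in the other, so the row of the slide and the time of LPS cannot be told apart.

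A total of 36927 genes and transcripts passed the filter on mean intensity and were tested, and 20836 of them carry a gene name. Levels are normalized intensities on the log2 scale, and a change is the mean at 4 h minus the mean in the untreated samples on that scale, given with the standard error (SE) of the limma fit, with n = 2 in each group. A gene was called when its limma p-value was below 0.05 after Benjamini-Hochberg adjustment over all 36927. A probe was taken as measured where the scanner software called it well above background. This held for 46.8% and 48.5% of the gene spots in the untreated KO samples and for 44.8% and 45.1% at 4 h, and no gene spot was saturated.

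Furin, the targeted gene, stood at 10.97 and 10.63 in the untreated samples labelled KO and at 12.02 and 11.97 at 4 h, a change of 1.19 (SE 0.14, adjusted p = 6.66e-06). In the samples labelled WT it stood at 11.56 and 11.48 untreated and at 12.02 and 11.65 at 4 h. The untreated KO samples were below the WT samples on both arrays, whereas at 4 h the KO level was not lower than the WT level on either array. At 4 h this probe thus did not show the lower level that the label implies. The paper reports Furin mRNA to be nearly lost in macrophages of these KO mice. Where on the transcript this probe lies relative to the deleted part was not analysed here, and the samples are called KO below as they are labelled. Lyz2, whose locus carries the Cre, stood at 17.10 and 16.96 untreated and at 16.23 and 15.76 at 4 h in KO, against 18.16 and 17.70 and 17.27 and 16.89 in WT, so it was lower in KO on all 4 of these arrays. Within KO, Lyz2 fell by 1.04 on the log2 scale (SE 0.22, adjusted p = 0.00163), but with spike-in scaling the change was -0.69 and not called (adjusted p = 0.0535).

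LPS is sensed by Toll-like receptor 4 (TLR4) together with its co-receptors CD14 and MD-2. The receptor signals through MYD88 to NF-kB and AP-1, which switch on cytokine and chemokine genes within the first hours, and from endosomes through TICAM1 to IRF3, which switches on interferon beta. Interferon beta in turn acts on the same and on neighbouring cells through STAT2, IRF9 and their partners, which bind the interferon-stimulated response element in the promoters of antiviral genes. Resident macrophages of the peritoneal cavity are long-lived phagocytes with a distinct gene program, which includes Vsig4 and Gata6.

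The promoters of 5 genes that rose at 4 h are shown because they carry the letters that NF-kB and the interferon-activated factors are known to bind. Each is the stretch of 250 bases just before the RefSeq transcription start, in GRCm38.p6, read 5′ to 3′ on the strand of the gene. Capitals mark GAAANNGAAA, the core of the interferon-stimulated response element, and GGGANNTTCC, a form of the NF-kB site, searched on both strands, so that a match on the other strand reads TTTCNNTTTC or GGAANNTCCC. These sites can overlap other motifs, which are left in lower case.
Cxcl10 (chr5:92348890-92349139, minus strand; response element, then NF-kB site): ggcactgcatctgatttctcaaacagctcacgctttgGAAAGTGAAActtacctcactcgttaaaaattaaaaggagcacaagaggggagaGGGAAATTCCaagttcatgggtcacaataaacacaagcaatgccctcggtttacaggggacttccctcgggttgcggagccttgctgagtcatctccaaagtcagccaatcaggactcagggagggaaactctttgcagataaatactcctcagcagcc
Ifit1 (chr19:34640639-34640888, plus strand; 2 response elements): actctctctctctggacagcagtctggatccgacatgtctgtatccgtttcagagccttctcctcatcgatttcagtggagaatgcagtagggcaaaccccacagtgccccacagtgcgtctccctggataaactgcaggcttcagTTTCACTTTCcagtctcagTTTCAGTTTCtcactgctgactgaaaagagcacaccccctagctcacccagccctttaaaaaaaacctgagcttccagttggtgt
Rsad2 (chr12:26456453-26456702, minus strand; response element): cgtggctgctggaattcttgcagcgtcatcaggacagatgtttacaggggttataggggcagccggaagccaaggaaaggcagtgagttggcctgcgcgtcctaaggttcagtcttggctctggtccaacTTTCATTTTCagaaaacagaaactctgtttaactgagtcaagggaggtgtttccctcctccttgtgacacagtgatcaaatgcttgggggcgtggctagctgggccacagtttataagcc
Il6 (chr5:30012864-30013113, plus strand; NF-kB site): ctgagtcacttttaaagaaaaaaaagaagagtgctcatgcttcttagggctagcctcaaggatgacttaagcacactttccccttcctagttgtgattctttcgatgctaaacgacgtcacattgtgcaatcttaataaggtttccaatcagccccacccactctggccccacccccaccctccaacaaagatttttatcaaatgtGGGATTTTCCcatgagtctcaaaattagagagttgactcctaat
Nfkbia (chr12:55492648-55492897, minus strand; NF-kB site): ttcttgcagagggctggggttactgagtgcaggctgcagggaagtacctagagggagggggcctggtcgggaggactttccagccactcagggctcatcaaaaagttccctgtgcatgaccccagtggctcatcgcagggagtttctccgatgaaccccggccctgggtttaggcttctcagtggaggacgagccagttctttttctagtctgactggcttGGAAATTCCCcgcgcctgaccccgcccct

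Of the tested genes, 16519 have such a window. The response element letters were found in the windows of 3.46% of them, in 7.14% of the 1303 genes called at least 2-fold higher and in 20.6% of the 155 genes called at least 8-fold higher. They were found in 2.74% of the 2004 genes called at least 2-fold lower. The NF-kB letters were found in 1.31% of all tested genes with a window, in 2.3% of those at least 2-fold higher, in 7.74% of those at least 8-fold higher and in 1.4% of those at least 2-fold lower. Of the 102 genes called at least 8-fold lower, 2 held the response element letters and 1 the NF-kB letters. The AP-1 site TGANTCA was found in 7.28% of all tested genes with a window, in 7.83% of those at least 2-fold higher and in 18.1% of those at least 8-fold higher. It was found in 5.69% of the genes at least 2-fold lower and in 11.8% of those at least 8-fold lower, so its share was above that of all tested genes in both groups with the largest changes. Among 25 interferon-stimulated genes with a window, 12 held the response element letters. A match describes the sequence and does not show that a factor is bound there.

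After 4 h of LPS, 13293 of the 36927 genes and transcripts were called in the KO macrophages (36%). Of these, 6009 were higher (16.3%) and 7284 lower (19.7%), and the median change of all tested was 0.0016 on the log2 scale. With a change of at least 2-fold, 5199 were called (14.1%), 2261 higher (6.12%) and 2938 lower (7.96%). This count was 8164 (3608 higher and 4556 lower) with the processed signals of the scanner software, to which no offset was added, and 618 with the methods' t-test after adjustment. Scaling changed the balance of directions, since 27.9% of the calls were higher with loess normalization alone and 49.1% with scaling on spike-in controls, against 45.2% as reported here. These scalings moved the median of all genes to -0.074 and to 0.20. Of all 36927, 287 were called at least 8-fold higher (0.777%) and 132 at least 8-fold lower (0.357%), and 219 and 126 of these had a gene name. Among the genes with a name, 54 rose but 6 fell by 5 or more on the log2 scale. All 13293 calls had the same direction in both replicates, and the changes in the replicates correlated across the tested genes with Pearson's r = 0.939, where genes are not independent replicates. The median difference between the replicates in the size of a change was 0.18. Transcripts that the array names only by their genome position had the opposite balance from the named genes, with 802 of 4603 higher (17.4%) and 373 lower (8.1%), against 18.5% and 25.1% of the named genes. Of these position-named transcripts, 42.3% were not well above background in any of the 4 samples, against 34.2% of the named genes.

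**Figure D1:**
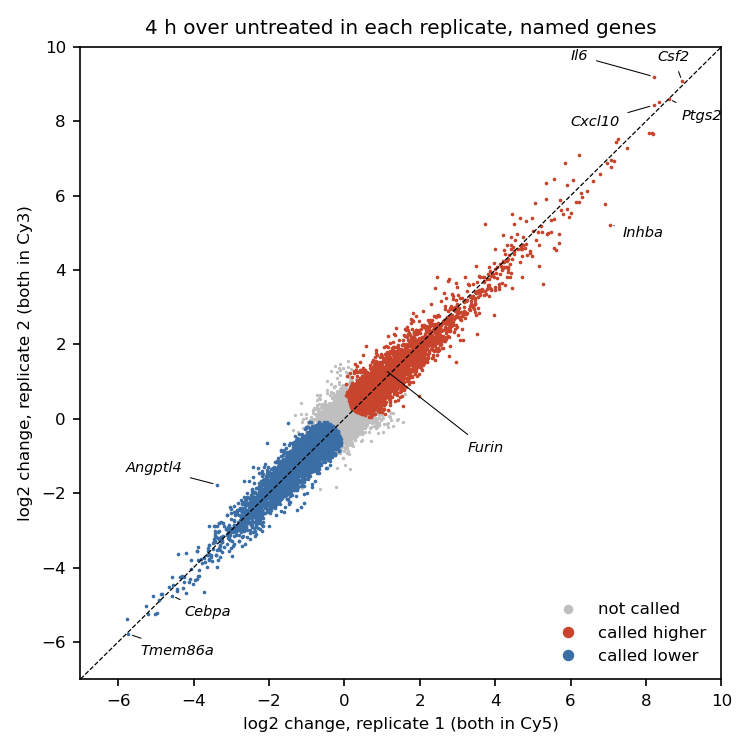
Change at 4 h against untreated in replicate 1 (x axis, both samples in Cy5) and replicate 2 (y axis, both samples in Cy3), on the log2 scale, for the 20836 named genes tested, with genes called higher in red, called lower in blue and not called in grey. The points lie along the dashed line of equal change, and Inhba and Angptl4 stand furthest from it among the genes marked.

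The secreted messengers of the response rose together. The gene lists were chosen with earlier results of these data known, so their counts describe the chosen members and are no test. All 22 tested members of the cytokine list were called higher (the background of higher calls being 16.3%), with a median change of 4.95. All of them changed at least 2-fold. Sizes depended on the signal used, since with processed signals the median was 6.15 for cytokines, and 4.21 and 4.81 for the CC and CXC chemokines below. Of the genes named in the text, 24 changed over 1.5-fold more with processed signals, among them Csf2 (9.97), Ch25h (7.14), Plagl1 (8.42), Tlr3 (3.63), Thbd (-6.11) and Tmem86a (-7.16). Csf2, the growth factor GM-CSF, stood at 7.60 and 6.98 untreated and 16.56 and 16.05 at 4 h, a change of 9.02 (SE 0.40, adjusted p = 9.19e-10), or 518-fold, the largest rise among genes measured in all 4 samples. Il6, which drives the acute phase response, went from 9.22 and 8.49 to 17.44 and 17.70, or 419-fold (SE of the log2 change 0.28, adjusted p = 5.17e-11). The levels after LPS lay far above the untreated levels for both genes, with no overlap between groups. Il1a, an alarm cytokine, rose by 7.39, from 9.06 and 8.53 to 16.32 and 16.06. Il1b, whose product is processed by the inflammasome, rose from 11.66 and 10.92 to 17.52 and 17.80 (change 6.37, SE 0.26). Tnf, the early inflammatory cytokine, rose from 10.99 and 11.32 to 17.91 and 17.10 (change 6.35, SE 0.26), and its 4 h samples differed from each other by more than its untreated samples did.

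The anti-inflammatory cytokine Il10 rose as well, from 7.18 and 7.84 to 11.60 and 12.74 (change 4.66, SE 0.33), with the larger rise in replicate 2. Il15, which sustains NK and memory T cells, stood at 7.58 and 7.64 untreated and at 11.96 and 12.05 at 4 h (change 4.39). The largest adjusted p among Il1a, Il1b, Tnf, Il10 and Il15 was 6.59e-08. In 6 of the 22 cytokines the probe was not well above background in either untreated sample, so only a lower bound of the fold can be given, set against the lowest signal measured above background. Ifnb1, interferon beta, was measured at 13.16 and 13.08 at 4 h against 6.19 and 6.20 untreated, which is at least 102-fold higher (adjusted p = 9.10e-12). Il33, an alarm cytokine of barrier tissues, was at 9.45 and 9.14 against 6.29 and 6.14, at least 7.11-fold higher (adjusted p = 1.63e-05). Both genes were clearly measured at 4 h in both replicates.

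**Figure D2:**
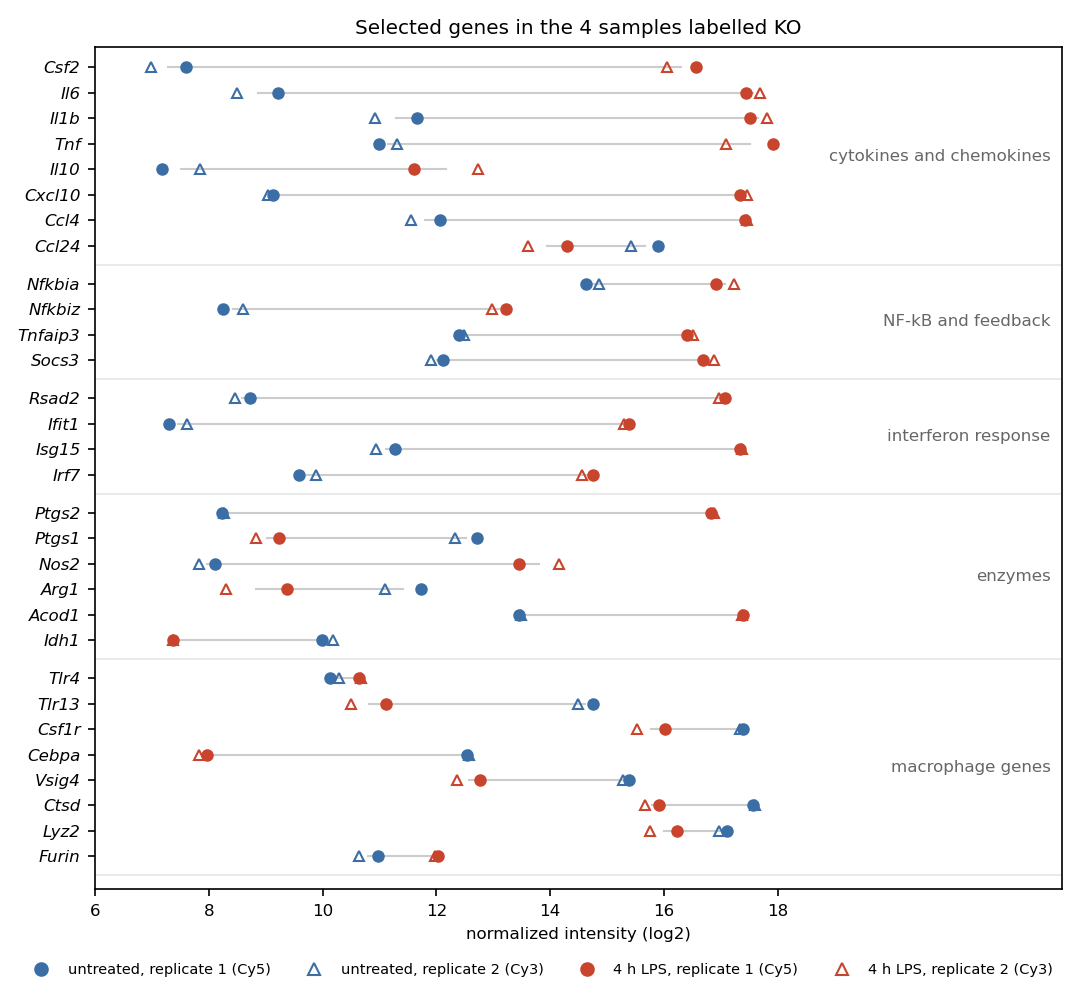
Normalized log2 intensity (x axis) of 30 genes (y axis) in each of the 4 KO samples, with untreated samples in blue, 4 h samples in red, filled circles for replicate 1, open triangles for replicate 2 and a grey line between the group means. Levels cannot be compared between genes, and for every gene drawn the untreated and the 4 h points do not overlap.

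Chemokines that call neutrophils, monocytes and T cells rose, while a few fell. Of 12 CC chemokines, 9 were called higher and 2 lower, with a median change of 3.47. Ccl4, which attracts monocytes and NK cells, rose from 12.06 and 11.55 to 17.42 and 17.46 (change 5.63, SE 0.14). The monocyte attractants Ccl7 and Ccl2 rose by 5.02 (SE 0.54) and 4.58 (SE 0.25). Ccl5, a T cell attractant, rose by 4.77, from 12.69 and 12.87 to 17.52 and 17.58. Against these, Ccl24, an eosinophil attractant typical of alternatively activated macrophages, fell by 1.71 on the log2 scale (from 15.90 and 15.43 to 14.30 and 13.61), and Ccl6 fell by 1.67. Of 10 CXC chemokines, 7 were called higher and 2 lower. Cxcl10, the interferon-induced attractant of T cells whose promoter is printed above, rose from 9.13 and 9.03 to 17.34 and 17.47, or 320.1-fold (SE of the log2 change 0.28, adjusted p = 7.63e-11). The neutrophil attractants Cxcl1, Cxcl2 and Cxcl3 rose by 6.49, 5.41 and 5.08. Cxcl14 fell by 2.46 and Cxcl12, which retains leukocytes in tissues, fell by 1.79. The largest adjusted p among these chemokines was 6.90e-04.

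The receptors that start the response were mixed, while most of the adaptors and kinases below them rose. Of 13 Toll-like receptors and their partners, 3 were called higher and 3 lower, so that 6 were called against a background of 36%. Tlr4, the LPS receptor, stood at 10.13 and 10.29 untreated and at 10.64 and 10.68 at 4 h, a difference of 0.45 that was not called (adjusted p = 0.108). Cd14, which hands LPS to the receptor, rose by 1.92 (SE 0.25), and Tlr3, the sensor of double-stranded RNA, by 2.14 (SE 0.13). Tlr2, the lipopeptide receptor, rose by 1.06. Tlr13, which senses bacterial ribosomal RNA, fell by 3.81 (SE 0.30, adjusted p = 1.84e-07), from 14.75 and 14.48 to 11.12 and 10.49. Unc93b1, the chaperone of the endosomal receptors, fell by 1.06 and Tlr9, the DNA sensor, by 0.41, the Tlr9 call being lost with spike-in scaling and without any 1 of the 4 samples. Of 21 adaptors and kinases below the receptors, 15 were called higher and 4 lower, with a median change of 0.81. Peli1, a ubiquitin ligase of the pathway, rose by 2.94, the kinase Ripk2 by 2.68, the kinase Map3k8 by 2.39 and the adaptor Myd88 by 2.26. The 4 that fell were Tab1 (by 1.26), the kinases Irak1 (by 0.79) and Irak4 (by 0.52) and the adaptor Ticam2 (by 0.44), the last of which lost its call with spike-in scaling, without untreated replicate 1 and without 4 h replicate 2.

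All 11 tested members of the list of NF-kB subunits and inhibitors were called higher, with a median change of 2.33. Nfkbiz, an inducible nuclear cofactor of NF-kB, rose from 8.24 and 8.59 to 13.22 and 12.98 (change 4.68, SE 0.19). The precursor genes Nfkb2 and Nfkb1 rose by 3.35 and 3.21, and the inhibitor Nfkbib by 2.63. Nfkbia, the inhibitor that NF-kB itself induces and whose promoter is printed above, rose from 14.62 and 14.86 to 16.92 and 17.23 (change 2.33, SE 0.14, adjusted p = 1.37e-08). Both the activating and the inhibiting arms of the family thus had higher RNA levels.

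Genes whose products restrain the response rose along with it. Of 19 such genes, 15 were called higher and 2 lower, with a median change of 2.63. The cytokine signaling suppressors Socs1, Socs3 and Cish rose by 5.20, 4.78 and 4.66. Tnfaip3, which encodes the deubiquitinase A20, rose from 12.39 and 12.49 to 16.40 and 16.52 (change 4.02, SE 0.12). Pdlim2, which promotes the breakdown of nuclear RELA, fell by 1.42 and Sigirr, a decoy-like receptor of the IL-1 family, fell by 1.23. Dusp6, a phosphatase of ERK, stood at 11.21 and 10.95 untreated and at 11.58 and 10.82 at 4 h and was not called (difference 0.12, adjusted p = 0.722).

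All 30 tested members of the list of interferon-stimulated genes were called higher, each at least 2-fold, with a median change of 4.63. Rsad2, which encodes the antiviral enzyme viperin, rose from 8.72 and 8.46 to 17.07 and 16.98, or 345-fold (SE of the log2 change 0.17, adjusted p = 1.92e-12). Cmpk2, its neighbour in the genome and a nucleotide kinase, rose from 7.94 and 8.20 to 16.13 and 15.86 (change 7.93, SE 0.17). Ifit1, an RNA cap sensor with a pair of response elements in its promoter, rose from 7.30 and 7.61 to 15.38 and 15.31 (change 7.89, SE 0.18). In these genes the replicates of a group lay far closer together than the groups did. Ifit3 rose by 7.05 and Isg15, a ubiquitin-like modifier, by 6.25, from 11.27 and 10.95 to 17.33 and 17.37. Of 15 interferon regulatory and STAT factors, 11 were called higher and 4 lower. Irf7, which amplifies interferon production, rose from 9.59 and 9.88 to 14.76 and 14.56 (change 4.92, SE 0.20, adjusted p = 4.03e-10). Stat2, Irf4 and Stat5a rose by 2.62, 2.15 and 2.09. The 4 that fell were Stat5b, Stat6, Irf3 and Irf2, by 0.99, 0.56, 0.53 and 0.41. With spike-in scaling Stat5b alone of these was called lower, Irf3 then being at -0.31 (adjusted p = 0.274), and without untreated replicate 1 the list had 2 members lower.

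**Figure D3:**
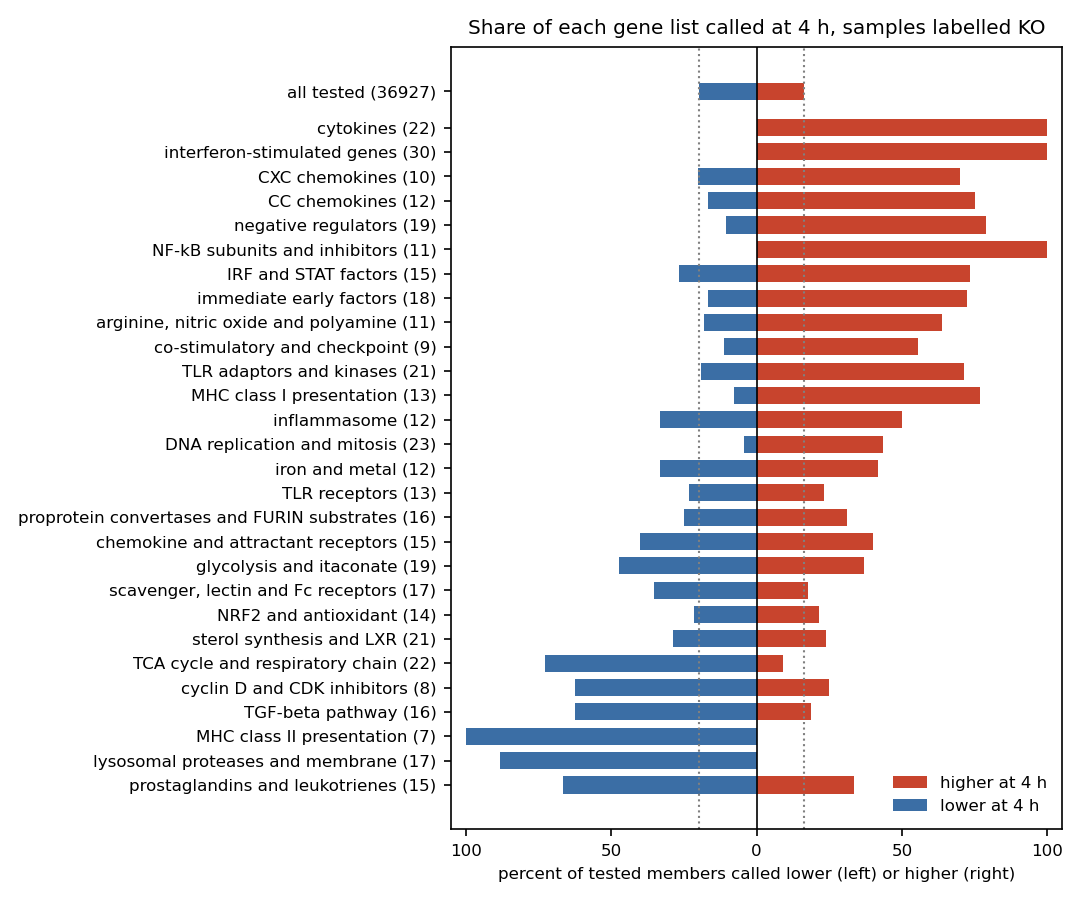
Percent of the tested members of each list (y axis, number tested in parentheses) that were called higher (red, to the right) or lower (blue, to the left) at 4 h against untreated in KO, with the lists in order of their median change. The top bar and the dotted lines give the shares over all 36927 tested, 16.3% higher and 19.7% lower. Of these 36927, 41% were not well above background in any of the 4 samples. The bars of cytokines, interferon-stimulated genes and NF-kB genes reach 100% on the right.

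Immediate early transcription factors, which peak within the first hour of stimulation, were mixed at 4 h. Of 18 tested, 13 were called higher and 3 lower, with a median change of 1.22. Ier3, a survival factor, rose by 3.68 and Myc by 3.45. Egr2 fell from 13.43 and 13.40 to 9.89 and 9.68 (change -3.63, SE 0.18, adjusted p = 2.82e-09), Klf2, a quiescence factor, fell by 2.89, and Fosb fell by 0.45, which was not called with spike-in scaling or without any 1 of the 4 samples. Egr1 stood at 10.69 and 10.52 untreated and at 11.20 and 10.91 at 4 h, a rise of 0.45 close to the threshold (adjusted p = 0.0291) that was not called with either other scaling or without untreated replicate 1, untreated replicate 2 or 4 h replicate 1. The relation of these levels to 1 h is given with the time course.

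The gene for nitric oxide synthase rose and that for arginase fell. Of 11 genes of arginine, nitric oxide and polyamine metabolism, 7 were called higher and 2 lower. Nos2, the inducible nitric oxide synthase, rose from 8.11 and 7.82 to 13.45 and 14.16 (change 5.85, SE 0.37, adjusted p = 2.29e-08). Slc7a2, the arginine importer, rose by 6.18 and Gch1, which makes the cofactor of nitric oxide synthase, by 3.01. Arg1, the arginase of alternatively activated macrophages, fell from 11.73 and 11.09 to 9.37 and 8.30 (change -2.58, SE 0.70, adjusted p = 0.00921), with the lower 4 h level in replicate 2. Without untreated replicate 1 the Arg1 change was -2.25 (adjusted p = 0.0623) and without 4 h replicate 2 it was -2.04 (adjusted p = 0.0525), neither of which was called. Asl, which regenerates arginine, fell by 0.89.

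Genes of energy metabolism moved in a less uniform way. Of 19 genes of glycolysis and itaconate synthesis, 7 were called higher and 9 lower. Acod1, which makes itaconate, rose from 13.45 and 13.49 to 17.40 and 17.37 (change 3.92, SE 0.17). Hk2, an inducible hexokinase, rose by 3.10 and Pfkfb3, which activates phosphofructokinase, by 1.80. Pfkp rose by 2.33 on its brightest probe and by 0.52 on another. The 9 lower members, which include most of the core glycolytic enzymes, fell by 0.70 to 1.66, and with scaling on spike-in controls 6 were lower and 7 higher. Of 22 genes of the tricarboxylic acid cycle and respiratory chain, 16 were called lower and 2 higher, with a median change of -0.60, but 7 lower and 2 higher with spike-in scaling. The 13 housekeeping genes had a similar median change of -0.58, with 7 called lower and 1 higher. Idh1 and Idh2, the NADP-dependent isocitrate dehydrogenases, fell from 9.99 and 10.18 to 7.37 and 7.37 (change -2.72, SE 0.26) and from 13.40 and 13.22 to 10.84 and 10.75 (change -2.52, SE 0.11). The complex II subunit Sdhb fell by 1.26. Idh3a, of the NAD-dependent isocitrate dehydrogenase, rose by 1.03, and Cycs, cytochrome c, rose by 1.62 on its brightest probe and by 0.093 to 1.40 on its others.

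Among 15 genes of prostaglandin and leukotriene synthesis, 5 were called higher and 10 lower. Ptgs2, the inducible cyclooxygenase COX-2, rose from 8.23 and 8.28 to 16.84 and 16.89, or 389.7-fold (SE of the log2 change 0.26, adjusted p = 2.79e-11). Ptgs1, the constitutive cyclooxygenase COX-1, moved the other way, from 12.72 and 12.32 to 9.23 and 8.82 (change -3.50, SE 0.27, adjusted p = 1.45e-07). The cyclooxygenase genes thus moved in opposite directions. Pla2g4a, which releases arachidonic acid, rose by 2.03. Ptges, a prostaglandin E synthase, rose by 1.73 on its brightest probe and by 4.56 on another, and the synthases Ptges2 and Ptges3 rose by 0.50 and 0.49, calls that were lost with either other scaling (Ptges2) or without untreated replicate 2 or 4 h replicate 2 (Ptges3). Prostacyclin synthase (Ptgis) fell by 2.95 and Alox5, the first enzyme of leukotriene synthesis, fell by 2.52, from 13.31 and 13.23 to 11.07 and 10.42.

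Among 21 genes of sterol synthesis and of the liver X receptor, 5 were called higher and 6 lower. This split was 2 and 9 with loess normalization alone, 3 and 6 with spike-in scaling, 3 and 7 without untreated replicate 2 or without 4 h replicate 1, and 3 and 6 without 4 h replicate 2. Ch25h, which makes 25-hydroxycholesterol, rose from 7.18 and 7.07 to 13.40 and 12.90 (change 6.03, SE 0.44). The receptor gene Nr1h3 fell by 2.22 and its target Abcg1, a cholesterol exporter, by 1.80. The sterol-linked genes Idi1, Insig1 and Cyp51 rose by 0.58, 0.58 and 0.42, although Cyp51 was at -0.011 with loess normalization alone and none of the 3 was called there. Without 1 of the samples the Cyp51 call was lost in every case, that of Idi1 without either replicate 2 and that of Insig1 without 4 h replicate 1. Of 14 NRF2-linked and antioxidant genes, 3 were called higher and 3 lower (3 and 5 from the 4 KO samples alone), the shares over all tested being 16.3% and 19.7%. Slc7a11, the cystine importer, rose by 3.76 and mitochondrial Sod2 by 1.35, while catalase (Cat) fell by 1.36 and cytosolic Sod1 by 1.14. Of 12 genes of iron and other metals, 5 were called higher and 4 lower, led by the siderophore-binding protein Lcn2, which rose by 4.97. The metallothionein Mt2 rose by 4.47 and the zinc importer Slc39a14 by 3.18, and haptoglobin (Hp) fell by 2.39.

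In the inflammasome, which activates IL-1 beta, 6 of 12 genes were called higher and 4 lower. Nlrp3, the sensor, rose from 7.18 and 7.27 to 11.60 and 11.19 (change 4.16, SE 0.15), Mefv, the sensor pyrin, rose by 3.30 and Casp4, which senses LPS in the cytosol, by 2.35. Txnip fell by 2.18, the adaptor Pycard by 1.48, and Nlrc4 and Naip2, which sense bacterial secretion proteins, by 0.68 and 0.60 (the latter not called with spike-in scaling).

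The 2 pathways of antigen presentation moved apart. Of 13 genes of MHC class I presentation, 10 were called higher and 1, the heavy chain H2-D1, lower (difference -0.38, but 0.079 with spike-in scaling, and not called there, with loess normalization alone or without either replicate 2). Nlrc5, the transactivator of class I genes, rose by 3.44 (2.55 as the mean of its probes) and the peptide transporters Tap1 and Tap2 rose by 3.14 and 1.36. All 7 genes of class II presentation were called lower (the background of lower calls being 19.7%), with a median change of -0.83. With spike-in scaling 3 of the 7 were called lower, and likewise 3 without untreated replicate 2 or without 4 h replicate 1. H2-DMa and H2-DMb1, which load peptides, fell by 1.63 and 1.55, and the class II chains H2-Eb1 and H2-Aa by 0.96 and 0.83, both not called with spike-in scaling. B cells also express class II genes, and the B cell markers moved with them. Of 9 B cell markers, 5 were called lower and 2, among them Pax5, higher (3 and 1 without untreated replicate 2). Their summed intensity went from 93082 and 131740 untreated to 33694 and 49151 at 4 h. Cd79b, a chain of the B cell receptor, fell by 3.52 and the B cell surface protein Ms4a1 (CD20) by 1.01, while Pax5, a B cell transcription factor, rose by 0.44. The Pax5 call was lost with either other scaling and without untreated replicate 1, untreated replicate 2 or 4 h replicate 2, and the Ms4a1 call with spike-in scaling and without untreated replicate 2 or 4 h replicate 1. The part of the B cell markers in the class II result was not tested, and in bulk RNA fewer cells of a type and less RNA per cell cannot be told apart. Of 9 co-stimulatory and checkpoint genes, 5 were called higher and 1 lower. Cd40, the receptor through which T cells license the macrophage, rose by 4.19 and Cd274, the checkpoint ligand PD-L1, by 3.70, while Havcr2, the one member called lower, was not well above background in either 4 h sample.

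Receptors for attractants split evenly, with 6 of 15 called higher and 6 lower. The chemerin receptor Ccrl2 rose by 4.32, the fatty acid receptor Gpr84 by 3.92, the formyl peptide receptor Fpr1 by 3.20 and the niacin receptor Hcar2 by 3.15. C5ar1, the receptor of complement fragment C5a, rose from 12.14 and 11.72 to 13.44 and 13.14 (change 1.36, SE 0.15). Cxcr4, the receptor of Cxcl12, fell from 11.65 and 11.50 to 7.45 and 7.89 (change -3.90, SE 0.15, adjusted p = 2.47e-10), the same direction as its ligand. Of 17 scavenger, lectin and Fc receptors, 3 were called higher and 6 lower (16.3% and 19.7% over all tested). Stab1 fell by 2.60, the lipoprotein receptor Scarb1 by 2.24 and the lectin Clec4n by 1.98. Axl, a receptor for dying cells, rose by 2.21, the lectin Clec4e by 1.51 and the oxidized lipoprotein receptor Olr1 by 1.49. Fcgr1, the high affinity Fc receptor, was at 10.72 and 10.36 untreated and 10.39 and 10.41 at 4 h and was not called (adjusted p = 0.874). The activating receptor Trem1 rose from 9.95 and 9.44 to 11.14 and 10.22 (change 0.99, SE 0.29, adjusted p = 0.0151), and its 4 h value in replicate 2 lay only just above the untreated range. The call was lost with loess normalization alone, without untreated replicate 2 and without 4 h replicate 1. Il12rb1, a chain of the IL-12 receptor, rose by 1.10 (SE 0.17), and Serpinb2, a protease inhibitor of activated macrophages, by 1.09 (SE 0.15).

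The lysosomal and macrophage programs fell. Of 17 lysosomal genes, 15 were called lower and 0 higher, with a median change of -1.11. Ctsd, the protease cathepsin D, fell from 17.57 and 17.60 to 15.91 and 15.67 (change -1.79, SE 0.13, adjusted p = 1.11e-07). Hexa, a lysosomal hexosaminidase subunit, fell by 1.74 and cathepsin H (Ctsh) by 1.61. Of 13 genes that mark macrophages, 10 were called lower and 2 higher, with a median change of -1.37. Cebpa, a transcription factor of the myeloid lineage, fell from 12.54 and 12.58 to 7.96 and 7.82, or 25.4-fold (SE of the log2 change 0.15, adjusted p = 4.74e-11). Its relative Cebpb rose by 1.01 and the lineage factor Spi1 by 0.39, although Spi1 was at -0.013 with loess normalization alone and was not called there, with spike-in scaling or without 3 of the 4 samples in turn. Aif1 fell by 2.06 and the signaling adaptor Tyrobp by 1.65. The growth factor receptor Csf1r fell from 17.40 and 17.34 to 16.01 and 15.52 (change -1.60, SE 0.15), and Adgre1, a surface receptor, fell by 0.98 (not called with spike-in scaling). The macrophage markers named here were well above background in all 4 samples.

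Of 12 markers of large peritoneal macrophages, 8 were called lower and 0 higher, with a median change of -0.97. Vsig4, a complement receptor, fell from 15.38 and 15.28 to 12.78 and 12.36 (change -2.77, SE 0.28), and the lipoxygenase Alox15 fell by 2.08. Gata6, the transcription factor that defines these cells, stood at 10.24 and 10.45 untreated and 10.35 and 9.94 at 4 h and was not called (difference -0.20, adjusted p = 0.64). Icam2, an adhesion protein, fell by 1.00 and Garnl3 by 1.61. Of 7 markers of small peritoneal macrophages, 2 were called higher and 4 lower.

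Markers of other cells that the lavage could hold were checked for the same reason. Of 11 T and NK cell markers, 1 was called higher and 2 lower, or 4 lower from the KO samples alone, and their summed intensity went from 21021 and 23781 to 12292 and 11153. Of 8 mast cell markers, 2 were called higher (Hdc and Gata2), or 5 without 4 h replicate 1, and their sum rose from 11503 and 16423 to 57491 and 59338. Hdc, which makes histamine, accounted for most of this sum at 4 h, rising from 10.40 and 10.32 to 15.49 and 15.13 (change 4.95), whereas Cpa3 and Kit, defining markers of mast cells, were not called, and Gata2 lost its call with either other scaling and without 3 of the 4 samples in turn. Of 9 neutrophil markers, 1 was called higher and 2 lower, and 5, among them Mpo, Ngp and S100a9, were not well above background in any of the 4 samples. Of 6 dendritic cell markers, 4 were called higher and 1 lower, with sums of 6654 and 7527 untreated and 16349 and 17696 at 4 h. Of 11 mesothelial and fibroblast markers and 5 eosinophil markers, 0 were called higher and 1 of each list lower. Of 13 housekeeping genes, 1 was called higher and 7 lower, with a median change of -0.58, but 2 were lower with spike-in scaling.

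Ccnd2, a D-type cyclin, rose by 4.54, whereas Ccnd1 fell from 9.38 and 9.02 to 7.82 and 7.66 (change -1.46, SE 0.17), and the cell cycle inhibitor Cdkn1b fell by 1.22. Cdkn1a, the inhibitor p21, rose by 3.00 on its brightest probe, but stood at -0.33 on a dimmer one. Of 8 such genes, 2 were called higher and 5 lower. Of 23 genes of DNA replication and mitosis, 10 were called higher and 1 lower, with a median change of 0.28. With loess normalization alone, 2 were higher and 4 lower. The number higher was 5 with spike-in scaling, 5 without untreated replicate 2 and 6 without 4 h replicate 2. Mki67, the proliferation antigen Ki-67, rose from 9.93 and 9.73 to 14.10 and 13.79 (change 4.12, SE 0.15) and Tyms, a thymidylate enzyme, by 2.18, whereas Tk1, thymidine kinase, fell by 0.89. Mcm5, of the replicative helicase, rose by 0.86 (not called with loess normalization alone).

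FURIN and TGF-beta are linked, since FURIN cleaves the TGF-beta 1 precursor. Of 16 genes of the TGF-beta pathway, 3 were called higher and 10 lower, with a median change of -0.78. Tgfb1 stood at 11.95 and 11.63 untreated and 12.38 and 11.78 at 4 h and was not called (difference 0.29, adjusted p = 0.272). The receptors Tgfbr1 and Tgfbr2 fell from 11.62 and 11.53 to 9.73 and 9.60 (change -1.91, SE 0.093) and from 13.09 and 13.65 to 11.45 and 11.88 (change -1.71, SE 0.21). Tgfbi, a matrix protein named for its induction by TGF-beta, fell by 2.59, and Smad3, a signal transducer, fell by 1.79 on its brightest probe and stood at -0.28 on another. The repressors Skil and Tgif1 rose by 1.35 and 1.04, and Smad2 rose by 0.85 (not called with loess normalization alone). Of 16 proprotein convertases and FURIN substrates, 5 were called higher and 4 lower (3 and 5 with loess normalization alone). Besides Furin these were led by Mmp14, a membrane metalloproteinase that FURIN activates, which rose by 2.15. The integrin chain Itgav rose by 1.44, and the sheddase Adam10 fell by 1.44.

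The genes with the largest falls were mostly not members of the lists. Tmem86a, a membrane protein, fell from 12.62 and 12.59 to 6.89 and 6.80, or 54.1-fold (SE of the log2 change 0.32, adjusted p = 5.98e-09). Engase, a cytosolic glycosidase, fell from 13.56 and 13.73 to 7.80 and 8.34 (change -5.58, SE 0.22). Sesn1, a stress-induced inhibitor of mTORC1, fell from 13.28 and 13.62 to 8.30 and 8.39, and Thbd, the anticoagulant thrombomodulin, from 11.91 and 11.75 to 6.99 and 6.88. In each of these genes the untreated samples lay more than 4 above the 4 h samples. Tmem37, Rab11fip5, Slc43a2 (an amino acid transporter), Rab7b (an endosomal GTPase), Nfam1 (an immunoreceptor adaptor), Klc4 and Slc46a3 fell by 4.53 to 5.23, and with Cebpa they complete the 12 largest falls among genes measured in all 4 samples. The 12 largest rises comprised Csf2, Il6, Ptgs2, Rsad2, Cxcl10, Cmpk2, Ifit1, Il1a, Plagl1, Ifit3, Oasl1 and Ifit2. Plagl1, a zinc finger factor, was the one gene among them outside the lists and stood at 7.32 and 7.03 untreated and at 14.53 and 14.47 at 4 h (change 7.32, SE 0.13), and its other probes changed by 0.58 to 7.08.

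Among the named genes measured in all 4 samples, the replicates differed most in Inhba, Angptl4 and H1f5. Inhba, which encodes the activin A subunit, stood at 8.20 and 9.40 untreated and 15.25 and 14.62 at 4 h, so its rise was 7.04 in replicate 1 and 5.22 in replicate 2, and it was called (change 6.13, SE 0.74, adjusted p = 1.22e-05). Angptl4, a regulator of lipoprotein lipase, fell by 2.58 (SE 0.59, adjusted p = 0.00283), from 11.57 and 11.07 to 8.20 and 9.30. H1f5, a linker histone, went from 9.12 and 8.30 to 7.98 and 8.72, a fall in replicate 1 and a rise in replicate 2, and was not called.

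Set against 1 h of LPS in the same genotype, 11728 genes and transcripts were called at 4 h (31.8%), 5534 higher (15%) and 6194 lower (16.8%). These levels share the 4 h samples with the comparison against untreated. With loess normalization alone the split was 2926 higher and 7873 lower, and with spike-in scaling 2541 and 5290. All 30 interferon-stimulated genes were higher at 4 h than at 1 h, as were 18 of 22 cytokines (1 lower), whereas of 18 immediate early factors 2 were higher and 8 lower (4 and 6 without 4 h replicate 1). Ifit3 stood at 8.60 at 1 h, close to its untreated mean of 8.57, and at 15.61 at 4 h (4 h minus 1 h 7.01, SE 0.16). Cmpk2, Rsad2, Ifit2 and Plagl1 rose by 7.59, 6.45, 6.46 and 6.53 over the same interval. Nos2 likewise rose between 1 h and 4 h, by 5.69. Tnf and Ifnb1, in contrast, had means of 17.56 and 13.00 at 1 h, and their 4 h means of 17.51 and 13.12 differed from these by -0.05 and 0.12 (adjusted p = 0.928 and 0.709). Egr2 was 14.58 at 1 h and had the largest fall to 4 h, a log2 change of -4.80. Egr1 differed by -3.21 from 1 h to 4 h, and Tmem37, Cerk, Rasa3 and Slc43a2 changed by -4.38, -4.23, -4.11 and -4.05.

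Set against 4 h, 11358 genes and transcripts were called at 24 h (30.8%), 5789 higher (15.7%) and 5569 lower (15.1%). The balance depended on scaling, with 8328 higher and 2192 lower under loess normalization alone and 8450 and 1327 with spike-in scaling. All 11 NF-kB genes were lower at 24 h than at 4 h, as were 17 of 22 cytokines (1 higher) and 24 of 30 interferon-stimulated genes (2 higher). With spike-in scaling, 12 interferon-stimulated genes were lower and 4 higher, and with loess normalization alone 16 and 4. Of 22 genes of the tricarboxylic acid cycle and respiratory chain, 13 were higher and 0 lower (8 and 1 without 4 h replicate 1), and of 23 genes of DNA replication and mitosis 19 were higher and 1 lower. Between 4 h and 24 h Tnf changed by -4.24 and Ifnb1 by -4.74, whereas Cxcl10, Ccl5 and Nos2 differed by 0.033, 0.13 and 0.46, which were not called (adjusted p = 0.959, 0.825 and 0.433). Arg1 rose by 4.22 after its low level at 4 h. Among named genes measured in all 4 samples compared, the largest falls after 4 h were those of Plagl1 (-7.06), Vsig4 (-5.78), the cytokine Tnfsf15 (-5.59) and Fn1, the matrix protein fibronectin (-5.53). The largest rises were in Csta2 (7.72, SE 0.40), Cstdc5 (7.16, SE 0.27), Cstdc4 (6.97, SE 0.27) and Stfa3 (5.53, SE 0.27), inhibitors of cathepsins whose probes may share targets because the genes are near-identical copies, and in Scd2, a fatty acid desaturase (5.09).

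**Figure D4:**
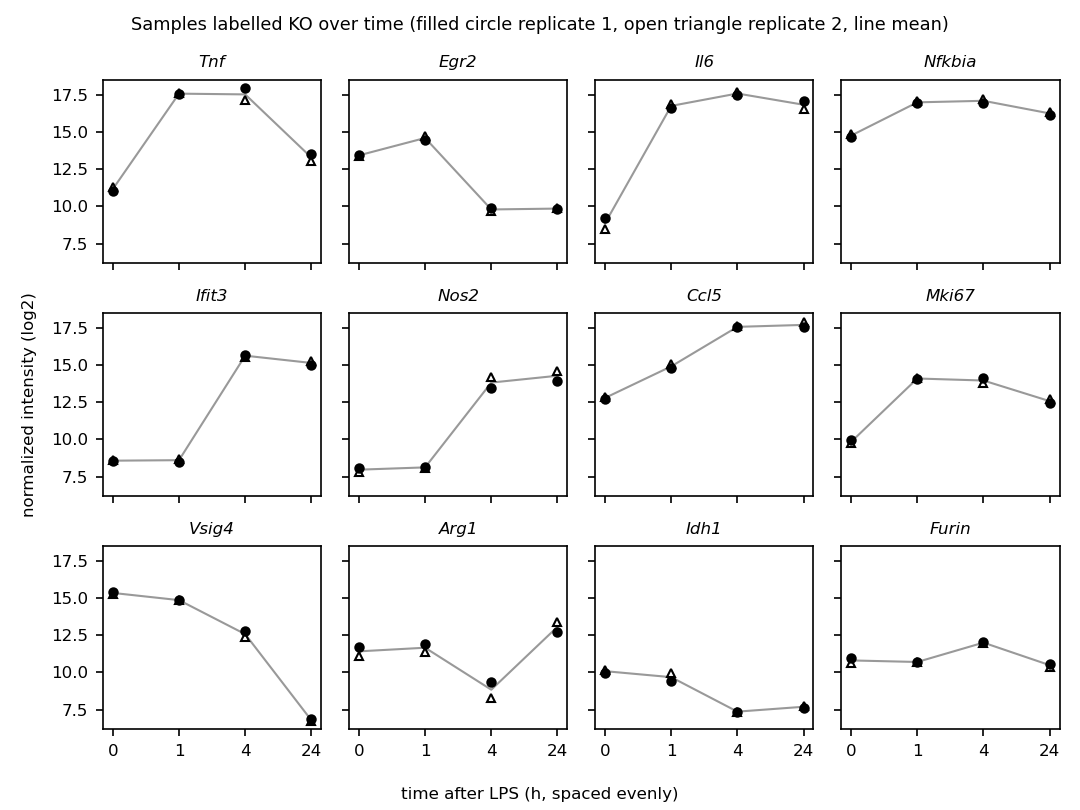
Normalized log2 intensity (y axis) of 12 genes in the KO samples untreated and at 1, 4 and 24 h of LPS (x axis, evenly spaced), with filled circles for replicate 1, open triangles for replicate 2 and a line through the means. Tnf is at its 4 h level by 1 h, Ifit3 and Nos2 rise between 1 h and 4 h, Arg1 is lowest at 4 h, and Furin is highest at 4 h.

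Whether the KO macrophages answered LPS differently from the WT macrophages was tested as the difference between the KO change and the WT change at 4 h, with the WT samples of the same arrays. Of the 36927 genes and transcripts, 0 were called (0%) by limma, 996 had an unadjusted p below 0.05, and the smallest adjusted p was 0.17. Other settings called 0 to 26, which are given with the dependence on processing. The genes with the smallest p and a KO change above the WT change were Arl5c, Wnk2 and Nts. Arl5c, a small GTPase, differed by 1.09 (SE 0.15, adjusted p = 0.17), with 13.21 and 13.32 untreated and 13.58 and 13.49 at 4 h in KO and 13.53 and 13.56 and 12.84 and 12.62 in WT. Wnk2, a kinase, differed by 0.91 (SE 0.14). For Nts, the peptide neurotensin, no size is given, since it was not well above background in the untreated KO samples. With a KO change below the WT change they were Serpinb2, by -1.26 (SE 0.21, adjusted p = 0.201), Ccl4, by -1.25 (SE 0.19, adjusted p = 0.17), and Psat1, a serine synthesis enzyme, by -0.79. For Ccl4 the untreated KO samples at 12.06 and 11.55 lay above the untreated WT samples at 10.84 and 10.69, while the 4 h levels were 17.42 and 17.46 in KO and 17.57 and 17.72 in WT. For Serpinb2 the KO samples lay above the WT samples at both times, with untreated levels of 15.92 and 15.82 in KO and 14.30 and 14.06 in WT and 4 h levels of 16.88 and 17.05 and 16.60 and 16.46. Directions between KO and WT rest on samples in which the Furin probe was not lower in KO than in WT at 4 h.

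The change of Furin itself was 1.19 in KO and 0.31 in WT, a difference of 0.88 (SE 0.18, adjusted p = 0.488). Nos2 rose by 5.85 in KO and by 5.33 in WT, and Il15 by 4.39 and 4.28. Il6, Il1b and Ccl2 changed by 8.71, 6.37 and 4.58 in KO and by 9.55, 7.44 and 6.04 in WT. None of these differences was called, and their adjusted p ranged from 0.488 to 1. In the fit reported here, no member of any list was called for the difference. The 26 calls of the fit with a replicate block were not broken down by list.

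**Figure D5:**
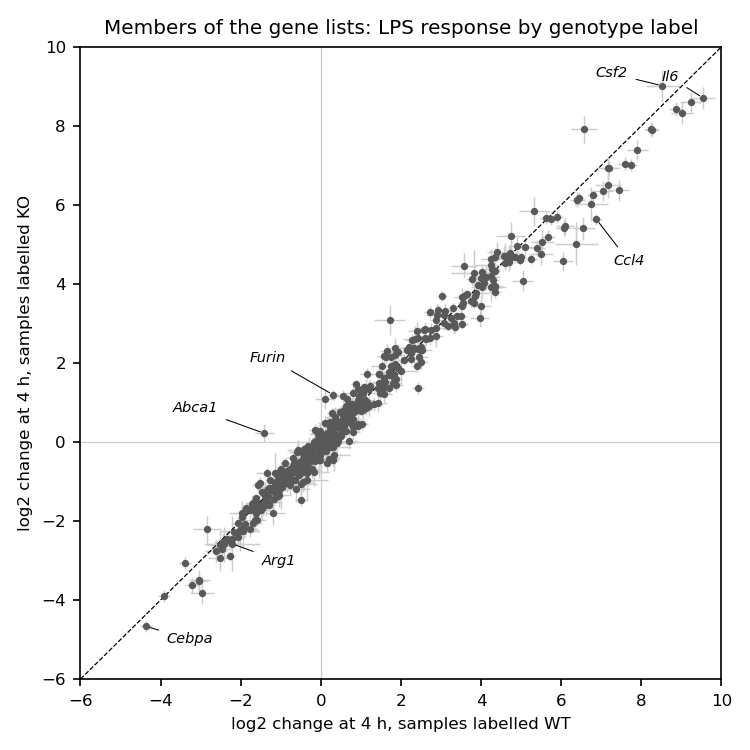
Change at 4 h against untreated on the log2 scale in the samples labelled WT (x axis) and KO (y axis) for the 539 tested members of the gene lists, with standard errors as grey bars (n = 2 per group) and a dashed line of equal change. The genes lie along the line, Furin and Abca1 stand above it and Ccl4 below it, and none of the differences was called in the fit reported here.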

How the data were processed

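RNA of peritoneal macrophages was measured on 8 Agilent arrays with 2 dyes each, 62976 spots per array, all on 1 slide. The authors scanned them and extracted the spots with Agilent Feature Extraction 10.7.3, and deposited the raw median intensity of each spot and of its local background in both dyes, together with the processed signal and flags of the software. Per the labels and the study's methods, they normalized with limma, by loess and quantile normalization, and the deposited table of log2 ratios of Cy5 to Cy3 holds the result. Its columns correlated with the log ratios computed here at Pearson's r from 0.987 to 0.996 across spots and had slopes on them of 0.927 to 1.04 and medians of 0.0061 to 0.011, which settles the log2 scale, centring and direction, and it served as an alternative for the difference between genotypes.

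In R 4.3.3 with limma 3.58.1, the background was corrected by normexp (offset 50), dyes were adjusted by loess within each array, and quantile normalization was applied across arrays and channels. Control spots and spots marked as outliers (169 to 284 per array) were left out. Of 55681 gene probes, 27509 could be named by RefSeq identifier (20887 genes). Where a gene had several probes (5512 genes), the brightest on average stood for it. The filter for testing was a mean log2 intensity of 6. The 16 channels were fitted with lmscFit as 8 group means (8 residual degrees of freedom, within-spot correlation 0.0905, from a seeded draw of 5000 genes), followed by eBayes and Benjamini-Hochberg adjustment. A planned use of mean pixel signals was replaced by medians, since the files hold medians. The number of arrays limits the precision.

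Lower bounds of fold changes, for probes not well above background in a whole group, were computed per channel after loess and Aquantile normalization, and each group holds 1 KO sample per dye. Promoter windows and gene names came from RefSeq (GRCm38.p6). The array design uses another build, so no array positions are given.

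Named were Furin and Lyz2, genes the study discusses, up to 4 members of each list by size of change together with members that moved against their list, the 12 largest rises and falls, the leading genes of the other comparisons and the 3 genes most discordant between replicates. Abca1, Asb4, Dab2ip and Rcan1, and single marker genes given beside counts, were chosen after their values were seen. The comparison, the gene lists and the rule were chosen with earlier results of these data known. List members without a named probe (Il12b, Mx1, Mx2, Clec7a, Cd68, Ighm, Ly6g and Polr2a) were not analysed here. A few genes that the rule would name are not reported here.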

Additional observations from a re-analysis of the deposited data

Results flagged for a closer look

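Of the 11373 named genes measured in all 4 KO samples, 165 (1.45%) had both KO samples moving one way after 4 h of LPS and both WT samples the other way, and in 3 of these both changes were called. The 6 described here are those 3 (Asb4, Dab2ip and Rcan1) together with Trem1, Arl5c and Abca1. Trem1 is discussed by the study, and Arl5c was named for the small p of its difference. Abca1, like the first 3, was chosen after its values were seen. Their opposite directions are therefore a description and no test. The values below are KO change, WT change and their difference (KO minus WT), on the log2 scale. In the limma fit reported here the test of the difference did not pass for any of them.

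Abca1, the cholesterol exporter, changed by 0.22 in KO and -1.41 in WT, a difference of 1.63 (adjusted p = 0.376). The sign of its KO change was not stable. It was -0.050 with loess normalization alone, -0.014 without untreated replicate 2 and -0.0041 without 4 h replicate 1. Asb4, a component of ubiquitin ligases, changed by 0.81 in KO and -0.97 in WT, a difference of 1.78 (adjusted p = 0.355). Trem1, a receptor that amplifies innate responses, changed by 0.99 in KO and -0.36 in WT, a difference of 1.35. Its KO change was 0.58 with loess normalization alone and was not called there. Arl5c, a small GTPase of the ARF-like family, changed by 0.27 in KO and -0.82 in WT, a difference of 1.09. Dab2ip, a RAS GTPase-activating protein, changed by -0.71 in KO and 0.43 in WT, a difference of -1.14 (adjusted p = 0.355). Rcan1, a calcineurin regulator, changed by -0.39 in KO and 0.41 in WT, a difference of -0.80 (adjusted p = 0.899). Each direction between genotypes rests on 2 samples per group. In the 4 h samples the Furin probe was not lower in KO than in WT, while Lyz2 was lower in KO on both 4 h arrays as on both untreated arrays. The KO change of Asb4 was not called with either other scaling or without either untreated sample, and that of Rcan1 was not called with spike-in scaling or without any 1 of the 4 samples.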

How the results depend on the processing

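There were 2 samples per group, and counts of calls differed between settings. At 4 h in KO, Agilent's processed signals called 8164 with a change of at least 2-fold. Loess alone called 3339 higher and 8626 lower. The methods' t-test, after Benjamini-Hochberg adjustment, called 776 (331 higher, 445 lower), of which 618 changed at least 2-fold, and it called 4549 higher and 5948 lower unadjusted. Leaving out 1 sample, with the lone sample of its group assumed to vary like the other groups, gave 11172 to 12620 calls, 4818 to 5794 higher, 6283 to 6826 lower and 5255 to 5363 with at least 2-fold. Of the 13293 calls, 69.9% (spike-in scaling) to 100% (no filter) were kept by the other limma settings, and 5.65% by the adjusted t-test. For the difference in response between KO and WT, processed signals called 6, loess alone 1, leaving out any 1 sample 0 and the replicate block 26.

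The replicate numbers mark 2 pairs per comparison, too few to establish pairing. The differences between KO replicates at 0 h and 4 h correlated at r = 0.277 across genes (0.214 to 0.336 over all pairs of time points), which are not independent replicates. A replicate number is also a dye, and these cannot be told apart. The replicate block called 6809 higher and 8057 lower in KO at 4 h.

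Of the 217 genes named, 200 were called for the KO change at 4 h against untreated and 23 of these lost the call without 1 of the samples: Arg1, Asb4, Csta2, Cstdc5, Cyp51, Egr1, Fosb, Gata2, H2-Aa, H2-D1, Havcr2, Idi1, Insig1, Irf2, Ms4a1, Pax5, Ptges3, Rcan1, Spi1, Stat6, Ticam2, Tlr9 and Trem1. With spike-in scaling, Adgre1, Asb4, Cyp51, Egr1, Fosb, Gata2, H2-Aa, H2-Eb1, Havcr2, Insig1, Irf2, Irf3, Lyz2, Ms4a1, Naip2, Pax5, Ptges2, Rcan1, Spi1, Stat6, Ticam2 and Tlr9 were not called, and with loess alone Asb4, Egr1, Gata2, H2-D1, Idi1, Insig1, Mcm5, Pax5, Ptges2, Smad2 and Trem1 were not. Processed signals lost the calls of Asb4, Cstdc5, Egr1, Gata2, Idi1, Pax5, Rcan1 and Stat6, and the mean of probes those of Pax5 and Stat6. The 4 KO samples alone lost Gata2, H2-D1 and Ptges3, Aquantile normalization H2-D1 and no background correction Havcr2. Over 17 settings, 3345 of 3685 values kept direction and call, 292 lost the call (162 of them under the adjusted t-test), 22 gained it and 26 changed sign in 13 genes, none of them called there. With loess alone, Abca1 was at -0.050, Cyp51 at -0.011, Dusp6 at -0.22, Mpo at -0.0043 and Spi1 at -0.013. With spike-in scaling, H2-D1 was at 0.079 and Ngp at 0.21. With processed signals, Ngp was at 0.0090 and S100a9 at -0.61, and without background correction Mpo was at -0.051 and S100a9 at -0.067. Leaving out 1 sample, Abca1 ranged from -0.014 to 0.46, Cpa3 from -0.47 to 0.89, Dusp6 from -0.26 to 0.50, Fcgr1 from -0.32 to 0.042, Gata6 from -0.41 to 0.00087, H1f5 from -0.77 to 0.051, Mpo from -0.13 to 0.18, Ngp from -0.14 to 0.043, S100a9 from -0.13 to 0.24 and Tgfb1 from -0.012 to 0.59. The causes were not tested. Probes not well above background have only bounds.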
